A study of Mus musculus with 14 samples.

Results

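Corneal stroma of adult mice was compared with corneal stroma at postnatal day 10 (P10) across all genes on the array. The comparison took the 3 arrays titled as adult cornea and the 2 titled as P10 cornea, 5 of the 14 arrays in the series. Both groups were CD-1 mice. The adult animals were 7 to 8 weeks old and the young animals 10 days old. In both, stroma was dissected from the eye and RNA was taken up with TRIzol, with 5 µg of total RNA going into each labelling. The other 9 arrays came from adult stromal cells cultured as keratocytes, fibroblasts or myofibroblasts, 3 of each. Keratocyte cultures had 1% serum, fibroblast cultures 10% serum, and myofibroblast cultures 10% serum with 10 ng/ml TGF-beta1. These arrays entered only the estimate of the spread and the check of which genes stromal cells carry in culture. The labels do not say whether replicates came from separate animals or pools, so p-values measure the spread between these samples, which may be technical.

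The corneal stroma is a transparent collagen layer between the outer epithelium and the inner endothelium. It is made by keratocytes, cells of neural crest origin that lay down thin, evenly spaced collagen fibrils together with small leucine-rich proteoglycans. In the mouse P10 lies before the eyelids open, when the cornea is still growing, and by adulthood keratocytes are sparse and mostly quiescent. The epithelium matures over the same period, from a few cell layers to a stratified sheet with flattened surface cells.

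Values are signals from Affymetrix MG_U74Av2 arrays, on a linear scale that ends at a lowest value of 1. Of 12422 probe sets, 9837 averaged 50 or more at either age, and they stood for 7123 genes. Probe sets for control transcripts left out of these samples had a median signal of 46.7 and a 95th percentile of 152 on these 5 arrays, and a group mean below 152 is described here as within background. The log2 values correlated at 0.873 to 0.927 among the adult arrays, at 0.968 between the P10 arrays and at 0.862 to 0.906 between the groups. Degraded RNA raises the ratio of 3' to 5' signal, and for Gapdh this ratio was 2.12 on adult replicate 1 and 0.896 to 1.04 on the other tissue arrays. For Actb it was 4.05 and 1.44 to 1.77. Precision is set by the number of arrays.

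The arrays also read genes of tissues other than stroma at both ages. Krt12, a corneal epithelial keratin, read 6773, 6947 and 7725 in the adult and 6554 and 7228 at P10, against 227 to 325 in the cultures. Cryaa, a lens crystallin, read 1819, 3136 and 2879 in the adult and 2249.8 and 4054 at P10. The keratocyte genes Kera (keratocan) and Lum (lumican) were also measured on every tissue array, at 214 or more and 817 or more. Epithelial, lens, retina and pigment genes are therefore described apart from the stromal ones, except for members that the matrix lists share with lists of other cell types. In these bulk samples fewer cells of a type and less RNA per cell cannot be told apart.

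On the deposited scale most differences were towards lower signal in the adult. With log2(signal + 16) fitted by limma and p adjusted over the 9837 probe sets, 384 probe sets (3.9%) were called at an adjusted p below 0.05, of which 336 (3.42%) were lower in the adult and 48 (0.488%) higher. Counted by gene, with the brightest probe set in these tissues standing for each, 216 of 7123 genes (3.03%) fell and 38 (0.533%) rose, 3.57% in either direction. Without regard to the test, every adult array lay below every P10 array in 23.6% of genes and above in 7.29%. The median gene was at -0.12 on the log2 scale, and 66.4% of genes lay below 0. Centring each array on its median added 0.176 to every difference and gave 259 lower and 97 higher probe sets, and quantile normalization gave 323 and 117. The median gene lay at 0.06 after centring, and the median probe set at 0.03 after quantile normalization. The lean of the typical gene therefore depends on the scaling, while called falls outnumbered called rises under each. No called gene changed sign under either, but 51 of the 216 falls were no longer called after centring and 29 after quantile normalization, and 0 of the 38 rises. The differences given below, and the counts of genes that lay below 0, are on the deposited scale. Signals are given array by array, P10 replicates 1 and 2 and adult replicates 1 to 3 in that order, and "from" and "to" stand for P10 and adult.

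**Figure D1:**
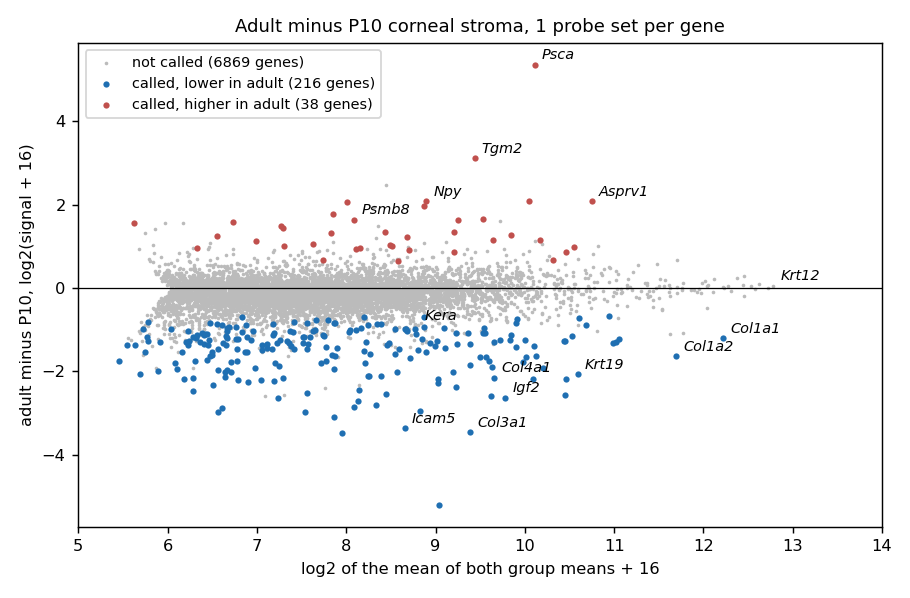
Each point is 1 of 7123 genes, with log2 of the mean signal plus 16 on the x axis and the fitted adult minus P10 difference in log2(signal + 16) on the y axis. The 216 called falls are blue and the 38 called rises red, with Psca highest and Ctsg lowest. Differences of genes within background depend on the added 16.

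The calls rest on few arrays. Without P10 replicate 1 or 2 there were 125 and 135 called probe sets, without adult replicate 1 there were 222, and with only the 5 tissue arrays fitted there were 245. Of the 254 called genes, 61 passed in the fit of all 14 arrays, in the fit of the 5 tissue arrays, after centring or quantile normalization, with a covariate for the Gapdh ratio, and without each of the 5 arrays in turn. These were 48 falls and 13 rises, and 19 of the 48 falls were in the lists of stromal matrix genes, or 21 with the contractile cytoskeleton list. The 13 rises were Psca, Tgm2, Asprv1, Npy, Ly6g6c, Scrg1, Xlr4a, Psmb8, Guca1a, Cyp24a1, Nr1d1, Rgs10 and Fermt3.

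The levels in cultured adult stromal cells give a view of which calls lie in genes that such cells can carry. Of the 216 falls 103 (47.7%) were above background on all 9 culture arrays and 47 (21.8%) were below it on all 9. Of the 38 rises 9 (23.7%) were above it on all 9 and 23 (60.5%) below it on all 9. Over all measured genes the shares were 41.8% and 30.4%. Cells change their genes in culture, so a gene that is low there may still be active in the tissue.

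Of the 4 classes of lists, stromal matrix had the highest share of falls. Of 145 measured genes in 10 lists for matrix and its receptors, 38 (26.2%) fell and none rose, against 3.03% and 0.533% of all genes, and 121 lay below 0. Their median was -0.59 on the log2 scale. With the contractile cytoskeleton list, which the class also holds, 42 of 170 (24.7%) fell and 1 rose. The matrix lists are not purely stromal. They share Itgb4 and Lama3, neither of them called, with the basal epithelium list, and Col8a1, a fall, with the corneal endothelium list. The corresponding shares of falls were 9.49% of 316 genes for growth and patterning, 2.26% of 354 for homeostasis and defence, and 8.42% of 273 markers of cell or tissue types. The lists were chosen with earlier results of these data known, so these shares describe them and are not independent evidence.

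**Figure D2:**
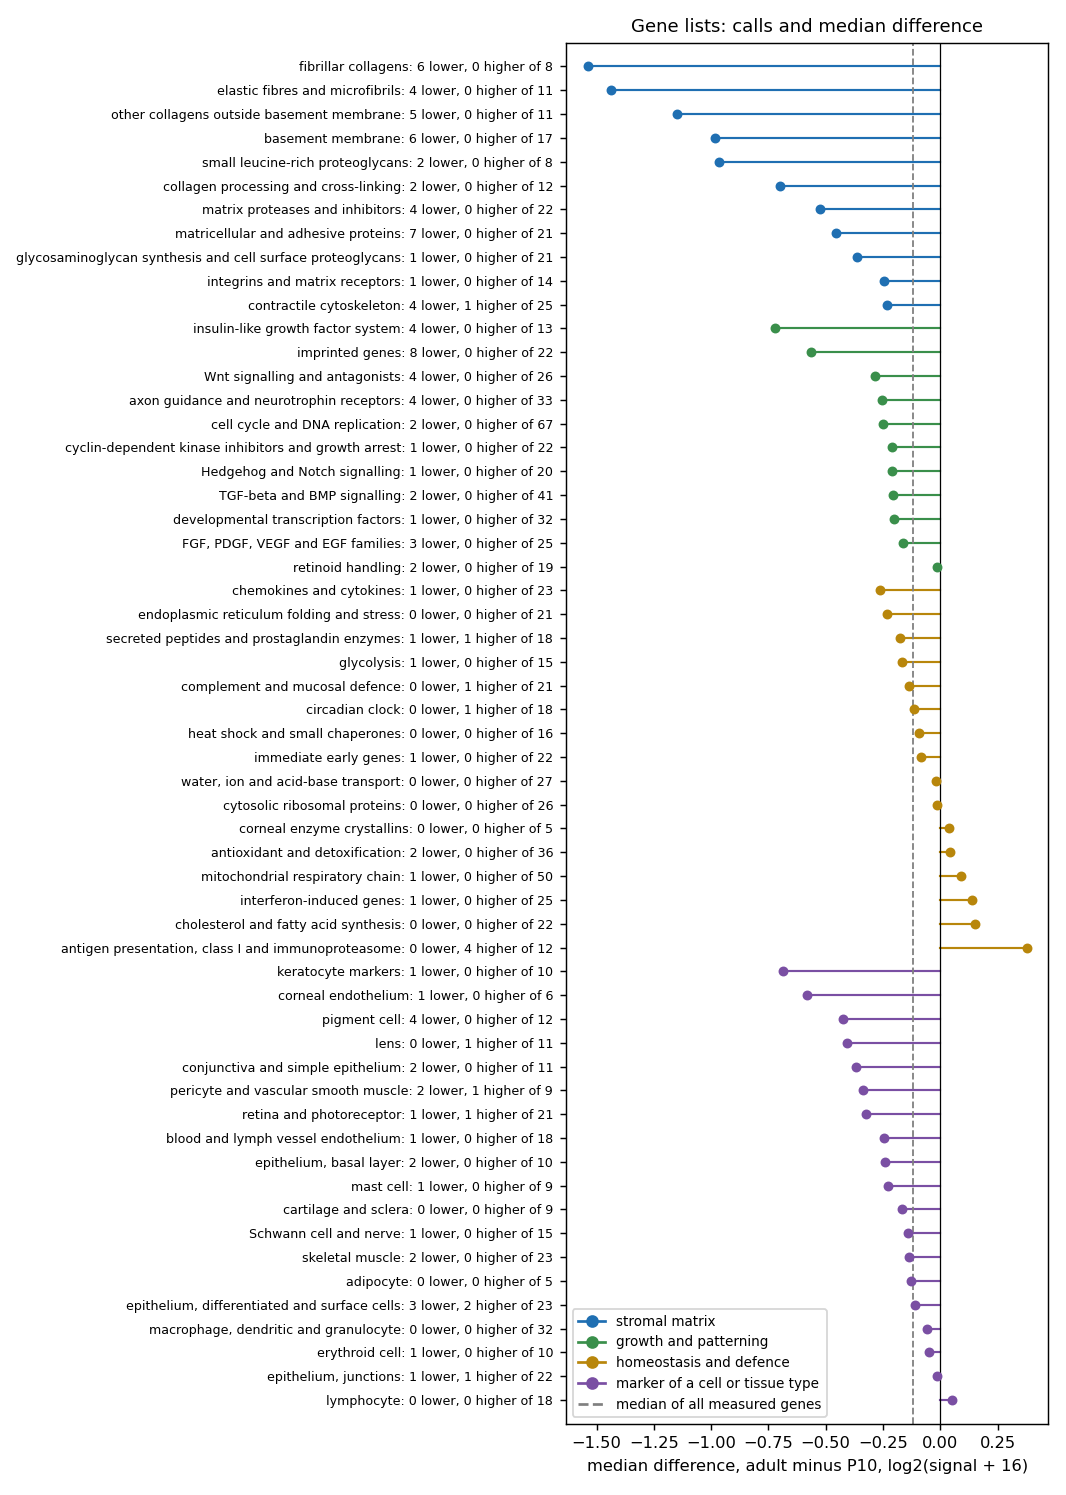
Each row is a gene list, with the number of members called lower and higher in the adult beside its name. Points give the median adult minus P10 difference in log2(signal + 16) over the measured members, the dashed line is the median of all 7123 genes at -0.12, and colours mark the 4 classes. Lists of the stromal matrix class, at the top, reach from -1.54 for fibrillar collagens to -0.23 for contractile genes.

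Fibrillar collagens, the rods of the stroma, were lower in the adult. Of 8 measured members 6 fell and none rose, with a median of -1.54. Col1a1, a chain of the main stromal collagen, was at 2815, 2926 and 2904 on the adult arrays and 6354 and 6926 on the P10 arrays, a difference of -1.20 ± 0.12 (SE) on the log2 scale (adjusted p = 0.000162). Its partner chain Col1a2 was at 1592, 1933 and 1304 in the adult and 4884 and 5107 at P10, a difference of -1.64 ± 0.17 (adjusted p = 0.000175). Every P10 array lay above every adult array in both genes, and for each 1 of 2 probe sets was called.

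Collagen V and XI start the fibrils and set their width. Col5a2 fell further than either collagen I chain in point estimate, from 2424 and 2138 to 669, 448 and 380.4 (-2.19 ± 0.24, adjusted p = 0.000183). Col5a1 was at 886 and 683 at P10 against 393, 190.2 and 284 in the adult (-1.44 ± 0.27, adjusted p = 0.00739, 0.0523 with only the 5 tissue arrays fitted). Col3a1, abundant in growing and healing tissue, went from 1284 and 1127 to 67.7, 139 and 87.7, within background, at least 7.92-fold lower (adjusted p = 0.00230). All 3 of its probe sets fell. Col11a1 went from 284 and 202 to 37.1, 17.2 and 23.6, at least 1.58-fold lower (adjusted p = 0.000390). Its partner Col11a2 did not pass, with 668 and 720 at P10 and 766, 903 and 804 in adults (adjusted p = 0.669). The difference between the 2 genes was not tested. Col5a1 did not pass without P10 replicate 1 (adjusted p = 0.135).

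Promoter sequence was looked at for Col1a2, as a member whose fall held in every fit. The 150 bases before its start in RefSeq, build GRCm38.p6, plus strand, chr6:4505468-4505617, are shown because they hold a CCAAT box (capitals), the motif bound by the factor NF-Y.
Col1a2 upstream: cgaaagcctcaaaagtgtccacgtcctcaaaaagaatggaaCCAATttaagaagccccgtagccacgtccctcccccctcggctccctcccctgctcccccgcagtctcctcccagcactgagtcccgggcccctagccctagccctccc
CCAAT on either strand in the 250 bases before the start was present in 72 of 165 falls with a promoter in the table (43.6%), in 11 of 29 rises (37.9%) and in 2293 of 5681 measured genes (40.4%). The match is a description of letters and not a binding site.

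Of 11 collagens outside the fibrils and the basement membrane 5 fell, with a median of -1.15. The 3 chains of collagen VI, a beaded filament around cells and fibrils, all fell. Col6a1 was at 2125 and 1903 at P10 against 911, 1118 and 711 in the adult (-1.15 ± 0.25, adjusted p = 0.0183). Col6a2 fell from 1495 and 1350.1 to 613, 680.4 and 485 (adjusted p = 0.0261), and Col6a3 from 2055 and 1593 to 722, 519 and 263 (adjusted p = 0.0391). Col14a1, which binds the fibril surface, fell from 444 and 467 to 54.1, 43.7 and 138, at least 2.99-fold (adjusted p = 0.000689). Col8a1, a collagen of Descemet's membrane under the stroma, fell from 583 and 577 to 84.7, 101 and 73.2, at least 3.82-fold (adjusted p = 5.22e-05). Col7a1, which anchors the epithelium, missed the threshold at 1180.1 and 752 at P10, then 497, 510.3 and 368 (adjusted p = 0.0524). Col13a1, a membrane collagen, was at 724 and 923 at P10 and 1071, 843 and 1387 in adults (adjusted p = 0.382). Col6a1 lost the call without adult replicate 1 or P10 replicate 1 or 2 or with the Gapdh covariate (adjusted p from 0.0593 to 0.192). Col6a2 did not pass without adult replicate 1 or 3 or P10 replicate 1 or 2 or with the Gapdh covariate (adjusted p from 0.0660 to 0.226). Col6a3 lost the call without adult replicate 2 or 3 or P10 replicate 1 or 2 or with the Gapdh covariate (adjusted p from 0.0532 to 0.308).

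Basement membranes underlie the epithelium and endothelium and surround vessels and nerves. All 17 measured members of their list lay below 0, 6 fell and the median was -0.98. Col4a1 was at 1238 and 1356 at P10 against 279, 263 and 296 in the adult (-2.15 ± 0.19, adjusted p = 3.64e-05). Col4a2, which pairs with it in 1 protein and starts next to it in the genome, fell from 437 and 453 to 133, 129.9 and 155, at least 2.91-fold (adjusted p = 0.000235). The adult arrays of both genes sat within a narrow range well below P10. Col4a5 fell from 170.2 and 191 to 28.1, 38.7 and 13.2 (adjusted p = 0.00965) and Col15a1 from 145 and 186 to 16.5, 27.7 and 26.1 (adjusted p = 0.00193). Of the non-collagen members, the laminin chain Lamb1 was at 790.1 and 568 at P10, then 315, 308 and 179 (adjusted p = 0.0162, 0.0632 with only the 5 tissue arrays fitted) and the heparan sulphate proteoglycan Agrn (agrin) at 977 and 1018 at P10 and 581, 450.1 and 389 in adults (adjusted p = 0.0223, 0.0522 with only the 5 tissue arrays fitted). Col4a4, a chain of mature basement membranes, did not pass, with 443 and 574 at P10, then 423, 410 and 570 (adjusted p = 0.859), nor did the epithelial laminin chain Lama3, at 555 and 493 at P10 and 365, 622 and 354 in adults (adjusted p = 0.665). Col4a5 and Lamb1 did not pass without P10 replicate 1 or 2 (adjusted p from 0.0575 to 0.234). Agrn lost the call without adult replicate 3 or P10 replicate 1 or 2 (adjusted p from 0.0534 to 0.198).

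**Figure D3:**
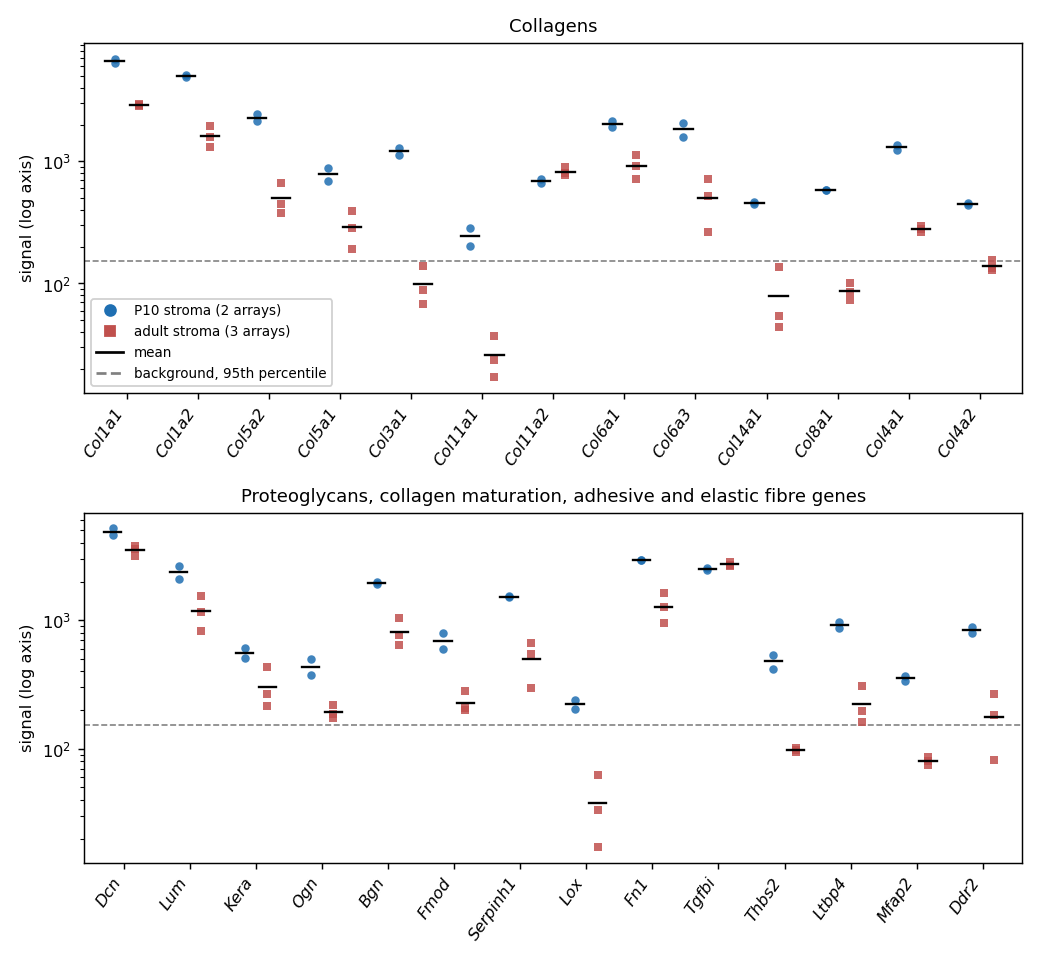
Points are single arrays, P10 as blue circles (2) and adult as red squares (3), with signal on a log axis, a black bar at each group mean and a dashed line at the background level of 152. Col1a1, Col1a2, Col4a1 and Col8a1 are lower on every adult array, while Col11a2 and Tgfbi are not.

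Among the genes that fold and cross-link collagen, 2 of 12 fell and 10 lay below 0. Lox, the enzyme that starts collagen cross-links, fell from 241 and 204 to 63.0, 17.3 and 33.1, at least 1.46-fold (adjusted p = 0.000264). Serpinh1, the collagen chaperone HSP47, fell from 1503 and 1552 to 541, 659.5 and 298 (-1.65 ± 0.24, adjusted p = 0.00110). Adult replicate 3 was the lowest array in Serpinh1. Pcolce, which helps to trim procollagen I, had no overlap between groups but did not pass, with 927 and 798 at P10, then 394, 531 and 290.3 (adjusted p = 0.0627). P4hb, a subunit of prolyl hydroxylase with other folding roles, overlapped between the groups at 750.5 and 740.4 at P10 and 706, 852 and 723 in adults (adjusted p = 0.981).

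Small leucine-rich proteoglycans space the fibrils, and 2 of 8 passed. Bgn (biglycan) fell from 1981 and 1915 to 762, 1032 and 647 (-1.27 ± 0.16, adjusted p = 0.000565). Fmod (fibromodulin) fell from 790.1 and 592 to 198, 279 and 208 (-1.53 ± 0.30, adjusted p = 0.00872). The keratan sulphate proteoglycans typical of the cornea had the same order without passing in the fit of 14 arrays. Lum was at 2646 and 2090.3 at P10 against 1557, 1160.1 and 817 in the adult (-1.04 ± 0.39, adjusted p = 0.192). Kera was at 609 and 503.9 at P10, then 429, 265 and 214 (-0.90 ± 0.79, adjusted p = 0.688, 0.204 with only the 5 tissue arrays fitted), and Ogn (osteoglycin) at 498 and 373 at P10 and 220, 174 and 186 in adults (adjusted p = 0.479, 0.0470 with only the 5 tissue arrays fitted, where it was called). Dcn (decorin) was high at both ages, at 4570 and 5172 at P10, then 3552, 3173 and 3748 (-0.48 ± 0.13, adjusted p = 0.0514). The spread in this fit includes the cultures, where Kera ran from 1.504 to 315. Fmod did not pass without P10 replicate 1 or with the Gapdh covariate (adjusted p from 0.0593 to 0.151).

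Of 11 elastic fibre and microfibril genes 4 fell and the other 7 were not called. All 11 lay below 0, and the median of -1.44 was close to that of the fibrillar collagens. Ltbp4, which holds latent TGF-beta in the matrix and helps to build elastic fibres, fell from 871 and 972 to 162, 307 and 195 (-2.03 ± 0.33, adjusted p = 0.00285). Mfap2, a microfibril glycoprotein, fell from 339 and 366 to 80.4, 85.8 and 74.7, at least 2.32-fold (adjusted p = 0.000235), and Mfap5 from 153 and 161 to 44.9, 34.9 and 52.5 (adjusted p = 0.00856). Eln (elastin), outside the naming rule and picked after its values were seen, was at 321 and 377 at P10 against 46.3, 49.7 and 66.2 in the adult. It did not pass in the fit of 14 arrays (adjusted p = 0.264), where cultures ran from 20.7 to 1555, and had an adjusted p of 0.00273 with the 5 tissue arrays alone. Fbln1 (fibulin 1) was at 561 and 597 at P10 and 459.6, 541 and 548 in adults (-0.16 ± 0.24, adjusted p = 0.837). With the 5 tissue arrays alone 6 members of the list fell. Mfap5 lost the call without P10 replicate 1 or 2 (adjusted p from 0.0846 to 0.102).

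Adhesive and matricellular proteins, which link cells to matrix or modulate them, gave 7 falls among 21 members. Fn1 (fibronectin) fell from 2953 and 2935 to 1619.6, 1268 and 946 (-1.23 ± 0.18, adjusted p = 0.00102). Thbs2 (thrombospondin 2), an inhibitor of vessel growth that also affects fibril assembly, fell from 538 and 416 to 94.5, 102 and 97.6, at least 3.12-fold (adjusted p = 0.00232). Ccn2 (connective tissue growth factor) fell from 231 and 200.4 to 28.5, 109.9 and 30.1 (adjusted p = 0.0201, 0.0721 with only the 5 tissue arrays fitted) and Sparcl1 from 311 and 329 to 97.5, 81.4 and 73.1 (adjusted p = 0.00579). Sparc, a collagen-binding protein picked after its values were seen, fell from 2254 and 1937 to 1239, 1462 and 769 (-0.89 ± 0.22, adjusted p = 0.0350, 0.160 with only the 5 tissue arrays fitted), and Matn2 (matrilin 2) from 158 and 146 to 28.2, 51.1 and 25.9 (adjusted p = 0.000609). Tgfbi, an abundant stromal adhesion protein, did not pass, with 2564 and 2472 at P10, then 2851, 2663 and 2711 (0.12 ± 0.37, adjusted p = 0.938). Smoc1, a calcium-binding matrix protein, was at 596 and 623 at P10 and 607, 438 and 457 in adults (adjusted p = 0.566). Thbs2 did not pass without P10 replicate 1 (adjusted p = 0.0508). Ccn2 lost the call without adult replicate 1 or 3 or P10 replicate 1 or 2 or with the Gapdh covariate (adjusted p from 0.0562 to 0.186). Sparcl1 did not pass without P10 replicate 1 or 2 (adjusted p from 0.0621 to 0.0811). Sparc lost the call without adult replicate 1 or P10 replicate 1 or 2, after centring or with the Gapdh covariate (adjusted p from 0.0667 to 0.317).

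Among genes of glycosaminoglycan synthesis and cell surface proteoglycans 1 of 21 (4.76%) fell, near the 3.03% of all genes. It was the glypican Gpc3, from 467 and 511 to 163, 233 and 173 (adjusted p = 0.00337). Among proteases and inhibitors 4 of 22 fell. Htra1, a secreted serine protease, fell from 950.4 and 939.8 to 340.4, 416 and 329 (-1.35 ± 0.21, adjusted p = 0.00224). Ctsk (cathepsin K), a collagen-degrading enzyme, fell from 513 and 465 to 176, 140.2 and 234 (adjusted p = 0.0433), the fibroblast peptidase Fap from 57.9 and 65.5 to 16.9, 12.2 and 19.8, within background at both ages (adjusted p = 0.0277, 0.109 with only the 5 tissue arrays fitted), and the metalloprotease inhibitor Timp2 from 172 and 179 to 50.4, 50.3 and 78.5 (adjusted p = 0.0376). The lysosomal protease Ctsl (cathepsin L) was at 2713 and 2738 at P10, then 2934, 2437 and 2409 (adjusted p = 0.914). Among 14 integrins and matrix receptors the collagen receptor Ddr2 was the 1 that fell, from 878 and 793 to 81.5, 265 and 182 (-2.27 ± 0.37, adjusted p = 0.00254). With 3.03% of all genes lower, 1 fall does not set this list apart. The integrin chain Itgav was at 712 and 736 at P10 and 1169, 828 and 530 in adults (adjusted p = 0.905). Gpc3 did not pass without P10 replicate 2 (adjusted p = 0.0622). Ctsk, Fap and Timp2 lost the call without adult replicate 1 or 2 or P10 replicate 1 or 2 or with the Gapdh covariate (adjusted p from 0.0669 to 0.293).

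Contractile genes split. Acta2, the smooth muscle actin of myofibroblasts and vessel walls, fell from 326 and 624 to 39.6, 65.0 and 63.4, at least 2.97-fold (adjusted p = 0.00437). Its P10 arrays were far apart, with replicate 2 the higher. Myl9 (myosin light chain) fell from 265 and 414 to 90.7, 93.8 and 107, at least 2.18-fold (adjusted p = 0.00700). Tpm1 (tropomyosin) fell from 575 and 709 to 197, 250.3 and 209 (-1.49 ± 0.17, adjusted p = 0.000235) and Actn1 (alpha-actinin 1) from 250.2 and 229 to 97.5, 101 and 91.4 (adjusted p = 0.00100). Cnn1 (calponin) rose instead, from 445 and 569.6 to 894, 1826 and 1188 (1.28 ± 0.30, adjusted p = 0.0257, 0.0748 with only the 5 tissue arrays fitted). Actn4, a broadly expressed actinin, was at 1724 and 1554 at P10, then 2298, 2324 and 1571 (adjusted p = 0.566). Of 9 pericyte and vascular smooth muscle markers, which share Acta2 and Cnn1 with this list, Abcc9 also fell, from 142 and 177 to 29.6, 43.7 and 63.7 (adjusted p = 0.00459). The summed signal of those 9 markers ran from 2568 to 3558 in the adult and from 2468 to 3058 at P10, and their part in the result was not tested. Acta2, Myl9 and Abcc9 did not pass without P10 replicate 2 (adjusted p from 0.0966 to 0.150). Cnn1 lost the call without adult replicate 2 or P10 replicate 1 or 2 (adjusted p from 0.0661 to 0.267).

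Growth genes of early life were among the falls. Of 22 imprinted genes 8 fell and none rose, with a median of -0.57, and of 13 genes of the insulin-like growth factor system 4 fell. Of all genes 3.03% fell and 0.533% rose, with a median of -0.12, so the lack of rises does not set these lists apart. Within background in both groups were 12 of the 22 and 5 of the 13. Igf2, a fetal growth factor in both lists, fell from 1299.9 and 1689.9 to 172, 298 and 221 (-2.64 ± 0.36, adjusted p = 0.000713). Igf1, the growth factor of later life, was at 246 and 286 at P10 and 205, 211 and 300.5 in adults (adjusted p = 0.791). Cdkn1c, an imprinted cell cycle inhibitor, fell from 532 and 562 to 53.1, 93.0 and 54.7, at least 3.60-fold (adjusted p = 0.000235). The imprinted RNA Meg3 fell from 413 and 544 to 117, 68.4 and 116, at least 3.12-fold (adjusted p = 0.0163). The paternally expressed genes Dlk1, Peg3 and Mest fell as well, the first 2 of them picked after their values were seen. Dlk1 went from 394 and 358 to 170.2, 198 and 222 (adjusted p = 0.0105, 0.0825 with only the 5 tissue arrays fitted), Peg3 from 392 and 411 to 214, 209 and 222 (adjusted p = 0.0251, 0.0723 with only the 5 tissue arrays fitted) and Mest, within background at both ages, from 143 and 148 to 32.9, 36.1 and 25.9 (adjusted p = 0.0166). The IGF carrier Igfbp2 fell by less, from 2500.3 and 2279 to 1643, 1694 and 1206 (-0.67 ± 0.16, adjusted p = 0.0306, 0.148 with only the 5 tissue arrays fitted). Igf1r, the receptor, was at 742 and 777 at P10, then 394, 407 and 323 (adjusted p = 0.0646, 0.0490 with only the 5 tissue arrays fitted). Gnas, which is imprinted for some of its transcripts, was at 3293 and 3618 at P10 and 2218, 2754 and 2381 in adults (adjusted p = 0.0565). Meg3 did not pass without adult replicate 2 or P10 replicate 1 or 2 (adjusted p from 0.0537 to 0.198). With only the 5 tissue arrays fitted the adjusted p was 0.00865 for Meg3 and 0.0113 for Mest. Dlk1 lost the call without P10 replicate 1 or 2 or with the Gapdh covariate (adjusted p from 0.0678 to 0.151). Peg3 and Mest did not pass without adult replicate 1 or P10 replicate 1 or 2 or with the Gapdh covariate (adjusted p from 0.0546 to 0.222). Igfbp2 lost the call without adult replicate 3 or P10 replicate 1 or 2, after centring or with the Gapdh covariate (adjusted p from 0.0567 to 0.284).

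Of 67 cell division genes 2 fell, a share near the 3.03% of all genes. Cdc25a, a phosphatase that starts DNA replication, fell from 1064 and 523 to 74.0, 105 and 72.8, at least 4.91-fold (adjusted p = 0.000100), by 1 of its 2 probe sets. The other fall, Kif11, a mitotic kinesin, lay within background at both ages (adjusted p = 0.0461, 0.318 with only the 5 tissue arrays fitted). Mki67, a marker of dividing cells, was at 402 and 233 at P10 against 297, 208 and 177 in the adult, with overlap between the groups (-0.44 ± 0.29, adjusted p = 0.557). The cyclin gene Ccnd1 was at 946 and 756 at P10, then 1095, 1357 and 1243 (adjusted p = 0.669), and 28 of the 67 genes were within background in both groups. Kif11 did not pass without adult replicate 1 or 3 or P10 replicate 1 or 2, after centring, after quantile normalization or with the Gapdh covariate (adjusted p from 0.0625 to 0.473).

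Signalling and patterning lists held falls and no rise. With 0.533% of all genes higher, the lack of rises does not set them apart. In the TGF-beta and BMP list 4.88% fell and in the hedgehog and Notch list 5%, near the 3.03% of all genes. Among 41 TGF-beta and BMP genes 2 fell, and Fstl1, a secreted follistatin-like protein, went from 1803 and 1691 to 662, 316 and 246 (-2.18 ± 0.35, adjusted p = 0.00232). Among 26 Wnt genes 4 fell. The ligand Wnt10b went from 777 and 896 to 131, 242 and 155 (-2.19 ± 0.57, adjusted p = 0.0455), by 1 of 3 probe sets, and Wnt5a from 84.3 and 73.0 to 1, 12.8 and 11.1, within background at both ages (adjusted p = 0.00282). Wnt6 and the nuclear factor Tcf7l2, both within background at both ages, also fell, from 130.1 and 109 to 51.2, 45.1 and 69.2 (adjusted p = 0.0232, 0.106 with only the 5 tissue arrays fitted) and from 88.0 and 121 to 36.8, 41.5 and 75.8 (adjusted p = 0.0409, 0.232 with only the 5 tissue arrays fitted). The pathway's effector Ctnnb1 (beta-catenin) was at 1487 and 1514 at P10 and 1251, 1329 and 1077 in adults (adjusted p = 0.440). Among 25 growth factor and receptor genes of the FGF, PDGF, VEGF and EGF families 3 fell. They were the receptor Egfr, from 249 and 230.2 to 129, 152 and 120 (adjusted p = 0.0254, 0.109 with only the 5 tissue arrays fitted), the receptor Met, from 128 and 107 to 39.0, 77.8 and 44.6 (adjusted p = 0.0270, 0.148 with only the 5 tissue arrays fitted), and the growth factor Ptn (pleiotrophin), from 105 and 188 to 30.1, 21.5 and 20.5 (adjusted p = 0.0381). Met and Ptn lay within background at both ages. The hedgehog transducer Smo was the 1 of 20 hedgehog and Notch genes that fell, from 186 and 217 to 88.5, 114 and 125 (adjusted p = 0.0362, 0.118 with only the 5 tissue arrays fitted). The BMP target Id2 was higher on every adult array without passing, at 639 and 501 at P10, then 1216, 1382 and 803 (adjusted p = 0.248). Wnt10b and Ptn lost the call without any 1 of the 5 arrays or with the Gapdh covariate (adjusted p from 0.0531 to 0.401). Wnt5a did not pass without P10 replicate 1 (adjusted p = 0.0501). Wnt6 and Egfr lost the call without adult replicate 1 or P10 replicate 1 or 2, after centring, after quantile normalization or with the Gapdh covariate (adjusted p from 0.0585 to 0.257). Tcf7l2 and Smo did not pass without adult replicate 1 or 2 or P10 replicate 1 or 2, after centring, after quantile normalization or with the Gapdh covariate (adjusted p from 0.0518 to 0.451). Met lost the call without adult replicate 1 or 3 or P10 replicate 1 or 2, after centring, after quantile normalization or with the Gapdh covariate (adjusted p from 0.0520 to 0.273).

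Axon guidance genes steer growing nerves, of which the cornea holds many. Of 33 such genes 4 fell and none rose, where 3.03% of all genes fell and 0.533% rose. Nrp1, a receptor for class 3 semaphorins and VEGF, fell from 433 and 453 to 104, 144 and 105, at least 2.91-fold (adjusted p = 0.000155), by both of its probe sets. The semaphorin Sema3c fell from 176 and 118 to 18.8, 27.7 and 16.4, within background at both ages (adjusted p = 0.00193). The axon receptor Robo1, within background at both ages, fell from 60.1 and 65.3 to 12.6, 23.6 and 1.54 (adjusted p = 0.00907, 0.137 with only the 5 tissue arrays fitted), and Sema4a fell from 1246 and 1021 to 322, 397 and 322 (-1.66 ± 0.23, adjusted p = 0.000713). The receptor Plxnb2, by its brighter probe set, and Sema6a did not pass, with 897 and 953 at P10 and 838, 1251 and 672 in adults (adjusted p = 0.959) and at 584 and 623 at P10, then 437, 572 and 631 (adjusted p = 0.869). Of 15 Schwann cell and nerve markers 1 fell, Snap25, within background at both ages (adjusted p = 0.0124, 0.0601 with only the 5 tissue arrays fitted). Sema3c did not pass without P10 replicate 1 (adjusted p = 0.0501). Robo1 lost the call without P10 replicate 1 or 2 (adjusted p from 0.0846 to 0.111). Snap25 did not pass without P10 replicate 2 or with the Gapdh covariate (adjusted p from 0.0706 to 0.260).

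Of 32 developmental transcription factors 1 fell, a share near the 3.03% of all genes. It was Sox4, from 247 and 251 to 111, 108 and 123, at least 1.64-fold (adjusted p = 0.0169). Pax6, needed for eye formation and kept in corneal epithelium, was at 1283 and 1032 at P10 and 1129, 914 and 830.2 in adults (adjusted p = 0.881), and Foxc2, a factor of the anterior segment, at 637 and 578 at P10, then 646, 688 and 478 (adjusted p = 0.981). In retinoid handling Cyp26a1, which degrades retinoic acid, fell from 151 and 116 to 36.4, 19.5 and 13.5, within background at both ages (adjusted p = 0.00177). The retinol and retinal dehydrogenases overlapped between ages, Adh1 at 2183 and 2112 at P10 and 1965, 2286 and 2148 in adults and Aldh1a1 at 1005 and 594 at P10, then 920, 1096 and 727 (adjusted p = 0.998 and 0.946). Klf6, an early response factor, fell from 252 and 149 to 19.05, 47.6 and 25.5, at least 1.28-fold (adjusted p = 0.000376), whereas the related early genes Jun and Jund overlapped between ages (adjusted p = 0.981 and 0.836). Sox4 lost the call without adult replicate 1 or P10 replicate 1 or 2 or with the Gapdh covariate (adjusted p from 0.0599 to 0.157).

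Some of the largest falls lay outside the lists. Icam5, an adhesion molecule best known from neurons, fell from 809.6 and 619.7 to 34.7, 97.2 and 44.2, at least 4.66-fold (adjusted p = 0.000212). Cldn11, a claudin, fell from 411 and 372 to 48.0, 1 and 82.0, at least 2.57-fold (adjusted p = 0.00224), and Npr3, the clearance receptor of natriuretic peptides, from 569 and 357 to 57.0, 46.1 and 44.0, at least 2.96-fold (adjusted p = 0.0303). Erbb4, a neuregulin receptor, fell from 2346 and 2323 to 333, 748 and 219 (-2.56 ± 0.33, adjusted p = 0.000590). The splicing factor gene Sf3b1 fell from 1014 and 935 to 106, 324 and 151 (adjusted p = 0.00231) by 1 of 2 probe sets. Dao, D-amino acid oxidase, fell from 207 and 99.2 to 5.40, 6.96 and 1 (adjusted p = 0.000584), and Kdelr3, a retrieval receptor of the secretory pathway, was within background at both ages. All of these were above background on some culture array, Erbb4 at 2169.9 to 3193 on the 9. Npr3 did not pass without any 1 of the 5 arrays or with the Gapdh covariate (adjusted p from 0.0651 to 0.277). Its adjusted p was 0.00273 with only the 5 tissue arrays fitted.

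Ctsg (cathepsin G), a protease of neutrophils and mast cells, showed the largest fitted fall. It was at 948 and 1068 at P10 and at 1, 13.6 and 26.4 in the adult, 1 of them at the floor (adjusted p = 0.0480). With only the 5 tissue arrays fitted the adjusted p was 0.000911. The spread in the fit of 14 arrays includes the cultures, where Ctsg ran from 1 to 1788. The list of granulocyte, macrophage and dendritic cell markers gave no call among 32, with 4 genes at an unadjusted p below 0.05 and 1, Cd14, called with the 5 tissue arrays alone. Its members included Mpo, of neutrophil granules, at 419.8 and 338 at P10 and 547, 588 and 408 in adults (adjusted p = 0.391), Csf1r, the macrophage growth factor receptor, at 239 and 213 at P10, then 252, 195 and 261 (adjusted p = 0.954), and Cd14, a lipopolysaccharide receptor, at 661 and 643 at P10 and 226, 217 and 348 in adults (adjusted p = 0.0800, 0.0387 with only the 5 tissue arrays fitted). The pan-leukocyte gene Ptprc was within background in both groups. Among 9 mast cell markers Cma1 (mast cell chymase) fell, from 1027 and 1373 to 756, 717 and 632 (-0.75 ± 0.19, adjusted p = 0.0397, 0.131 with only the 5 tissue arrays fitted), by 1 of 3 probe sets. In the cultures of stromal cells Cma1 ran from 366 to 768 and Mcpt1, another of these markers, from 665 to 1127.5. The source of this signal in the cultures was not tested. Summed signal of the 9 was 1801 to 2312 in the adult and 2867 to 3210 at P10, and its part in the fall of Ctsg was not tested. Ccr8, a chemokine receptor, had the floor value on each of the 3 adult arrays, against 289 and 36.1 at P10 (adjusted p = 0.00575, 0.0756 with only the 5 tissue arrays fitted). It ran from 141 to 1167 in the cultures of stromal cells. Ctsg lost the call without any 1 of the 5 arrays or with the Gapdh covariate (adjusted p from 0.0666 to 0.288). Cma1 did not pass without any 1 of the 5 arrays, after centring, after quantile normalization or with the Gapdh covariate (adjusted p from 0.0529 to 0.487). Ccr8 lost the call without P10 replicate 1 (adjusted p = 0.0623).

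The rises included enzymes and signalling genes with no common list. Tgm2 (transglutaminase 2), which cross-links proteins, rose from 118 and 118 to 1529, 1545 and 632, at least 7.52-fold (adjusted p = 0.00108), and ran from 49.6 to 438 in the cultures. Npy (neuropeptide Y), a transmitter of sympathetic nerves and other cells, rose from 190 and 138 to 798, 944 and 533 (2.08 ± 0.23, adjusted p = 0.000235). Scrg1 rose from 223 and 126 to 633, 951 and 599.5 (1.98 ± 0.27, adjusted p = 0.000713), and Rgs10, a regulator of G protein signalling, from 313 and 314 to 870.2, 972 and 662 (1.35 ± 0.20, adjusted p = 0.00151). Adult arrays lay above P10 arrays in each of these. Npy was within background on all culture arrays, at 36.1 to 67.9, while Scrg1 and Rgs10 ran from 163 to 282 and from 259 to 426.

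Further rises included metabolic genes. Cyp24a1, which degrades active vitamin D, rose from 67.9 and 59.9 to 224, 258 and 158, at least 1.38-fold (adjusted p = 0.000833). Mgst3, a microsomal glutathione transferase, rose from 393 and 249.9 to 611, 1704 and 1050 (1.67 ± 0.41, adjusted p = 0.0332, 0.0818 with only the 5 tissue arrays fitted), with a wide spread among the adult arrays. Ucp1, the uncoupling protein of brown fat, rose from 84.9 and 52.4 to 259, 231 and 149.7, at least 1.37-fold (adjusted p = 0.00439). The sodium-glucose cotransporter gene Slc5a1 rose from 30.6 and 40.9 to 215, 119 and 99.6, within background by group mean at both ages (adjusted p = 0.00644). Plac8 rose from 397 and 361 to 1848, 2040.5 and 1242 (2.10 ± 0.45, adjusted p = 0.0162), and Xlr4a, of a family with near-identical copies that could share the probes, from 103 and 73.6 to 427, 342 and 258 (adjusted p = 0.000565). Fermt3 (kindlin 3), an integrin activator of blood cells, rose from 108 and 118 to 328, 355 and 244, at least 2.01-fold (adjusted p = 0.000565). Mgst3 did not pass without adult replicate 2 or 3 or P10 replicate 1 or 2 (adjusted p from 0.0646 to 0.372). Ucp1 lost the call without P10 replicate 2 (adjusted p = 0.111). Slc5a1 did not pass without P10 replicate 1 (adjusted p = 0.107). Plac8 lost the call without adult replicate 1 or 2 or P10 replicate 1 or 2 or with the Gapdh covariate (adjusted p from 0.0508 to 0.158).

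In the circadian clock list 1 of 18 genes rose. Nr1d1 (REV-ERB alpha), a repressor in the clock, rose from 194 and 159.6 to 524, 558 and 368 (1.36 ± 0.20, adjusted p = 0.00155). Dbp, a clock output gene picked after its values were seen, was at 135 and 89.3 at P10 against 371, 705 and 400.2 in the adult, and was called with the 5 tissue arrays alone (adjusted p = 0.0195) but not in the fit of 14 (adjusted p = 0.0896). Bhlhe40, another clock repressor, was at 308 and 334 at P10, then 549, 649.9 and 378 (adjusted p = 0.446). The time of day of dissection is not in the labels.

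Antigen processing was the list with the most rises. Of 12 class I and immunoproteasome genes 4 rose and none fell, 2 of them also with the 5 tissue arrays alone, against 0.533% of all genes rising, with a median of 0.38. Psmb8, Psmb9 and Psmb10 encode the catalytic subunits that replace the standard ones in the immunoproteasome. Psmb8 rose from 119 and 107 to 452, 482 and 264, at least 2.54-fold (adjusted p = 0.000900). Psmb9 rose from 63.6 and 63.7 to 178, 165 and 133 (adjusted p = 0.0115) and Psmb10 from 146 and 150.2 to 265, 277 and 202 (adjusted p = 0.0477, 0.187 with only the 5 tissue arrays fitted), both from within background. Tap2, a peptide transporter chain, was within background at both ages, at 38.3 and 38.2 at P10 and 119, 79.7 and 73.7 in adults (adjusted p = 0.0214, 0.128 with only the 5 tissue arrays fitted). Adult replicate 3 had the lowest adult value in all 4 genes. The class I genes H2-K1 and H2-D1, whose probes can pick up related genes, did not pass, with 1059.8 and 953 at P10, then 1457, 1698 and 832 (adjusted p = 0.653) and at 916 and 1028 at P10 and 1008, 1371 and 709.9 in adults (adjusted p = 0.979). Among 25 interferon-induced genes none rose, and Ifitm3 fell from 1148 and 1390.4 to 481, 634 and 459.6 (-1.26 ± 0.27, adjusted p = 0.0178). Psmb9, Tap2 and Ifitm3 did not pass without adult replicate 1 or P10 replicate 1 or 2 or with the Gapdh covariate (adjusted p from 0.0515 to 0.219). Psmb10 lost the call without adult replicate 1 or 2 or P10 replicate 1 or 2 or with the Gapdh covariate (adjusted p from 0.0986 to 0.303).

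Psmb9 and Tap1 start 225 bases apart on opposite strands, so the stretch between them lies before both. The stretch, from RefSeq build GRCm38.p6 at chr17:34187331-34187555, is shown because Psmb9 passed the test and Tap1 did not. It is printed on the plus strand, from the Psmb9 side to the Tap1 side, with a CCAAT box and the GC box GGGCGG (here read on the other strand as CCGCCC) in capitals.
Psmb9 to Tap1: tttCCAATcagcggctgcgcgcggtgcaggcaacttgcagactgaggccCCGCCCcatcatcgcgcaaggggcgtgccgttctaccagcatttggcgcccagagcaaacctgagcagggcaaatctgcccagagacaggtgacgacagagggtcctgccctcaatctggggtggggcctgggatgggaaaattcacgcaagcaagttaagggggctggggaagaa
Psmb9 was among the rises, whereas Tap1, picked after its values were seen, was at 170.2 and 209 at P10 against 166, 156 and 165 in the adult (-0.20 ± 0.16, adjusted p = 0.659). The difference between the 2 genes was not tested. Among 108 pairs of measured genes that start within 250 bases of each other on opposite strands, 4 had 1 called gene and 0 had 2. GGGCGG on either strand within 250 bases before the start was present in 8 of 29 rises with a promoter in the table (27.6%), in 104 of 165 falls (63%) and in 3441 of 5681 measured genes (60.6%).

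Lists of corneal metabolism and of basic cell upkeep held 0 to 2 calls each, and with 3.03% of all genes lower and 0.533% higher such counts do not set them apart. None of 5 enzyme crystallins, the abundant soluble enzymes of the cornea, was called, and 0 had an unadjusted p below 0.05. Aldh3a1 was at 6391 and 7062 at P10 against 6154, 6745 and 7415 in the adult (adjusted p = 0.999). Tkt (transketolase) was at 5032 and 4711 at P10, then 4838, 4972 and 5209 (0.04 ± 0.26, adjusted p = 0.978), with overlap between groups. The limma fit made no call among 26 cytosolic ribosomal proteins, 22 genes of cholesterol and fatty acid synthesis, 27 of water and ion transport, 21 of folding in the endoplasmic reticulum or 16 heat shock genes, where 1, 3, 4, 3 and 2 genes had an unadjusted p below 0.05. With the 5 tissue arrays alone 1 of these was called, Car3, a carbonic anhydrase of the transport list, which also stands in the adipocyte list. Of 50 respiratory chain genes 1 fell, Cyc1, by 1 of 2 probe sets, from 2865 and 2846 to 1003, 951 and 1544 (adjusted p = 0.00431). Among 36 antioxidant genes Mgst1 and Prdx4 fell, from 274 and 247 to 67.9, 115 and 75.3 (adjusted p = 0.0315) and from 253 and 222 to 95.7, 113 and 80.3 (adjusted p = 0.01003). Gsta4, a glutathione transferase for lipid aldehydes, was higher on every adult array, at 2522 and 2589 at P10 and 3853, 4098 and 4248 in adults, and was called with the 5 tissue arrays alone (adjusted p = 0.0402) but not with 14 (adjusted p = 0.732). Cyc1 did not pass without P10 replicate 1 or 2 (adjusted p from 0.0559 to 0.0567). Mgst1 lost the call without adult replicate 1 or 3 or P10 replicate 1 or 2 or with the Gapdh covariate (adjusted p from 0.0680 to 0.239). Prdx4 did not pass without P10 replicate 1 or 2 or with the Gapdh covariate (adjusted p from 0.0512 to 0.141).

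Ptgds, the prostaglandin D synthase found in keratocytes, did not pass, with 619 and 1174 at P10 against 397, 579 and 631 in the adult (-0.68 ± 0.33, adjusted p = 0.363). P10 replicate 2 was its highest array. Penk (proenkephalin) fell from 539.6 and 493 to 193, 321 and 264 (-0.98 ± 0.21, adjusted p = 0.0183, 0.104 with only the 5 tissue arrays fitted). In mucosal defence Ltf (lactoferrin), an iron-binding protein of tears, was the 1 of 21 that rose, from 86.5 and 86.7 to 139.7, 257 and 196, at least 1.26-fold (adjusted p = 0.0136, 0.103 with only the 5 tissue arrays fitted). Clu (clusterin), an abundant chaperone of the ocular surface, was at 1169.7 and 1361 at P10, then 671, 1141 and 576 (adjusted p = 0.429). Among 23 chemokines and cytokines Cxcl1 fell, from 205 and 214 to 90.3, 68.3 and 129.8 (adjusted p = 0.0421, 0.0937 with only the 5 tissue arrays fitted). Penk lost the call without adult replicate 1 or P10 replicate 1 or 2 or with the Gapdh covariate (adjusted p from 0.0722 to 0.192). Ltf did not pass without P10 replicate 1 or 2 (adjusted p from 0.127 to 0.131). Cxcl1 lost the call without adult replicate 1 or 2 or P10 replicate 1 or 2 or with the Gapdh covariate (adjusted p from 0.110 to 0.286).

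Epithelial genes, taken apart from stromal ones, included the largest rise and several falls, while the brightest ones overlapped between ages. The summed signal of 22 junction genes was 18410 to 22637 in the adult and 20726 to 21437 at P10, and that of 23 genes of differentiated and surface cells 25624 to 34542 over all 5 arrays. Krt12, given above, differed by 0.05 ± 0.15 (adjusted p = 0.935), and the junction genes Dsp and Perp by 0.01 ± 0.20 and -0.04 ± 0.44 (adjusted p = 0.995 and 0.986). Against this, Psca, a lipid-anchored surface protein of stratified and other epithelia, was at 27.8 and 43.6 at P10, within background, and at 1614, 2828 and 1986 in the adult, at least 13.7-fold higher (adjusted p = 2.59e-08). It had the largest rise of all genes and was at 1 to 5.82 on the culture arrays. Asprv1, an aspartic protease of upper epidermal layers, rose from 431 and 924 to 2651, 2755 and 2789.6 (2.08 ± 0.25, adjusted p = 0.000390). The tight junction gene Cldn7 rose from 487 and 459 to 1235, 1256 and 792 (1.15 ± 0.20, adjusted p = 0.00459, 0.0545 with only the 5 tissue arrays fitted), and Ly6g6c, a lipid-anchored relative of Psca, from 70.6 and 89.6 to 276, 582 and 356, at least 2.53-fold (adjusted p = 0.000659). Cldn7 did not pass without P10 replicate 1 or 2 (adjusted p from 0.0594 to 0.0881).

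Of the keratins 6 fell. Krt15, of the basal layer and limbus, fell from 2929.6 and 2844 to 1147, 1682 and 842 (-1.28 ± 0.27, adjusted p = 0.0151). The basal keratin Krt14 fell from 1973 and 1864 to 1014, 1437 and 1049 (-0.73 ± 0.18, adjusted p = 0.0373, 0.131 with only the 5 tissue arrays fitted). Krt19, of conjunctiva and simple epithelia, fell from 2037 and 2804 to 334, 1095 and 473 (-2.06 ± 0.34, adjusted p = 0.00309), by both probe sets. Krt4, of mucosal epithelia such as conjunctiva, fell from 1317 and 1703 to 239, 757 and 416 (-1.78 ± 0.35, adjusted p = 0.0101, 0.0703 with only the 5 tissue arrays fitted), and Krt17 from 1403 and 1705 to 387, 958 and 516 (-1.40 ± 0.36, adjusted p = 0.0435, 0.0937 with only the 5 tissue arrays fitted). Krt16, within background at both ages, fell from 72.5 and 202 to 15.2, 20.5 and 2.27 (adjusted p = 0.00348). Adult replicate 2 was the highest adult array in all 6 keratins and still lay below both P10 arrays. Krt13, the partner of Krt4 and picked after its values were seen, was at 639 and 953 at P10 and 252, 584 and 323 in adults (adjusted p = 0.0641). Krt6a and Krt6b did not pass, with 3401 and 4373 at P10, then 3369, 4726 and 4541 (adjusted p = 0.849) and at 2028 and 2558 at P10 and 2969, 3628 and 3597 in adults (adjusted p = 0.585). Krt15 lost the call without adult replicate 1 or P10 replicate 1 or 2, after centring or with the Gapdh covariate (adjusted p from 0.0559 to 0.147). Krt14 and Krt17 did not pass without adult replicate 1 or 3 or P10 replicate 1 or 2, after centring or with the Gapdh covariate (adjusted p from 0.0662 to 0.360). Krt19 and Krt16 lost the call without P10 replicate 2 (adjusted p from 0.0783 to 0.108). Krt4 did not pass without P10 replicate 1 or 2 (adjusted p from 0.0595 to 0.150).

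Other epithelial genes gave single calls. The desmosomal cadherin Dsc3 fell from 371 and 247 to 1, 60.6 and 34.0, at least 1.99-fold (adjusted p = 0.00175). Tff2, a mucosal trefoil peptide, fell from 643 and 435 to 273, 260.2 and 223 (-1.03 ± 0.20, adjusted p = 0.00782, 0.0740 with only the 5 tissue arrays fitted), while Tff1 and Tff3 did not pass (adjusted p = 0.776 and 0.668). The signal of Tff2 was also high in the cultures, at 439.6 to 934. The hemidesmosome genes Col17a1 and Itgb4 did not pass, with 2741 and 2339 at P10, then 2467, 2924 and 1986 (adjusted p = 0.934) and at 1432 and 1149 at P10 and 1458, 1681 and 1122 in adults (adjusted p = 0.841). Summed signal of the 11 conjunctival and simple epithelial genes was 3294 to 4586 in the adult and 6056 to 6968 at P10. Krt19 and Tff2 are among the 11, so this sum is not separate from their falls. The part of such epithelia in the keratin results was not tested. Tff2 lost the call without P10 replicate 1 (adjusted p = 0.186).

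**Figure D4:**
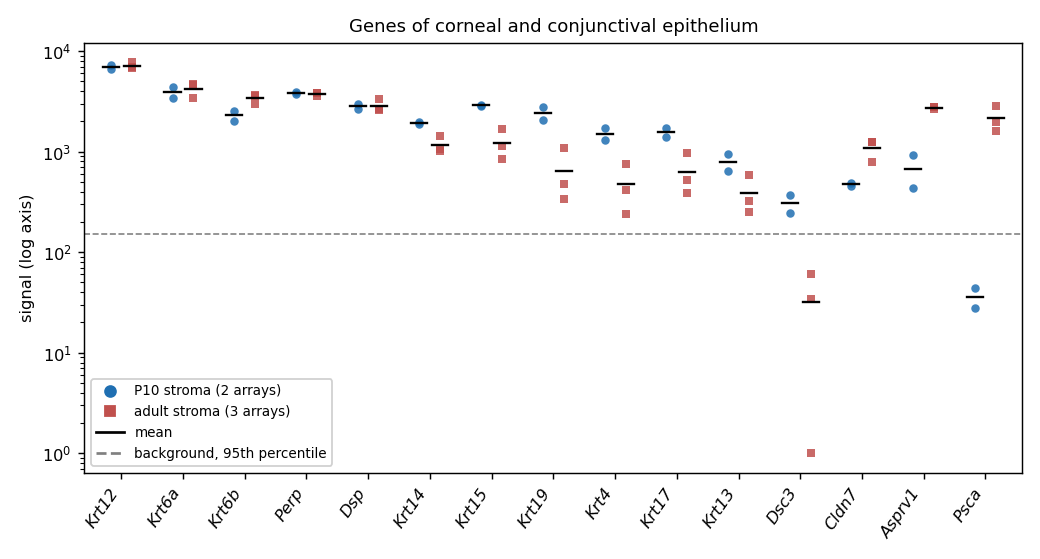
Points are single arrays, P10 as blue circles (2) and adult as red squares (3), with signal on a log axis, black bars at the means and a dashed line at the background level of 152. Krt12, Perp and Dsp overlap between ages, the keratins from Krt14 to Krt17 are lower on all 3 adult arrays, and Psca is within background at P10 only.

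Lens and retina genes gave signal at both ages. Of 11 measured lens genes 9 lay below 0, as did 66.4% of all genes, and none of the 11 passed as lower. Summed lens signal was 10149 to 16019 in the adult and 14939 and 23511 at P10, so the groups overlapped. The gamma-crystallins Crygd and Cryge, with near-identical sequences that can share probes, did not pass. Crygd was at 3349.5 and 5198 at P10, then 1328, 2422 and 2298 (adjusted p = 0.117), and Cryge at 3861 and 5557 at P10 and 1508, 2762 and 2506 in adults (adjusted p = 0.0886). A dimmer probe set of each was called lower. Cryaa did not pass (-0.25 ± 0.30, adjusted p = 0.799). Crybb2, a beta-crystallin that is known to come on late in lens growth, rose from 801 and 1183 to 1576, 2188 and 2138 (0.99 ± 0.21, adjusted p = 0.0142, 0.0779 with only the 5 tissue arrays fitted), by 1 of 2 probe sets. It was at 36.7 or less on the culture arrays. Crybb2 did not pass without P10 replicate 1 (adjusted p = 0.267).

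Of 21 retina and photoreceptor genes 1 rose, 1 fell and 17 lay below 0. Of all genes 0.533% rose, 3.03% fell and 66.4% lay below 0. Guca1a, which activates guanylate cyclase in photoreceptors, rose from 308 and 256 to 811, 1098 and 811 (1.62 ± 0.19, adjusted p = 0.000264). Pdc (phosducin) fell from 318 and 523 to 86.4, 170 and 155, at least 2.57-fold (adjusted p = 0.00439, 0.0522 with only the 5 tissue arrays fitted). Sag (arrestin) had a wide spread and did not pass, with 1107 and 1800.1 at P10, then 415, 711 and 2352 (adjusted p = 0.622), and adult replicate 3 held the highest value. That array also had the highest summed retina signal, 8209, against 3854 and 4948 on the other adult arrays and 5283 and 7119 at P10. Rhodopsin is not among the named probe sets. Pdc lost the call without P10 replicate 2 (adjusted p = 0.125).

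Of 12 pigment cell genes 4 fell, none rose and the other 8 were not called, where 3.03% of all genes fell and 0.533% rose. Without P10 replicate 2, 1 of the 12 was called lower. Pmel, a protein of the melanosome, fell from 533 and 2224 to 142, 161 and 208 (-2.59 ± 0.39, adjusted p = 0.00147). Tyrp1, a melanin enzyme, fell from 167 and 719 to 1, 37.9 and 23.3, at least 2.28-fold (adjusted p = 0.0119), by all 3 probe sets, and Dct, another, from 888 and 1916 to 444, 510.2 and 485 (-1.42 ± 0.28, adjusted p = 0.0101, 0.0581 with only the 5 tissue arrays fitted). The remaining fall, Ednrb, lay within background at both ages, from 122 and 166 to 25.9, 12.5 and 34.0 (adjusted p = 0.00448). Summed pigment signal was 2044 to 2262 in the adult, 3153 on P10 replicate 1 and 6816 on P10 replicate 2. Pmel, Tyrp1, Dct and Ednrb are part of this sum, so it is not separate from their falls. The lens and retina sums were also higher on P10 replicate 2 than on replicate 1, and their part in these results was not tested. Kit, a receptor of melanocytes and mast cells, was at 493 and 546 at P10 and 538, 429 and 365 in adults (adjusted p = 0.704), and Gpr143, higher on every adult array, and Trpm1 did not pass either (adjusted p = 0.759 and 0.857). Tyrp1 did not pass without adult replicate 1 or P10 replicate 2 or with the Gapdh covariate (adjusted p from 0.0599 to 0.242). Dct lost the call without P10 replicate 2 or with the Gapdh covariate (adjusted p from 0.0560 to 0.224).

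Markers of blood, vessels and muscle were mostly uncalled. Of 10 erythroid markers 1 fell and 5 were within background in both groups, with a median of -0.05. Of all genes 3.03% fell. The fall was that of the globin Hba-a1, from 1565 and 2327 to 641, 697 and 1052 (-1.28 ± 0.23, adjusted p = 0.00459, 0.0517 with only the 5 tissue arrays fitted). Gata1 and Klf1 of the same list did not pass (0.22 ± 0.20 and -0.003 ± 0.15, adjusted p = 0.692 and 0.997). Hbb-b2, a globin outside the lists that was picked after its values were seen, fell from 972 and 1378 to 314, 260.4 and 452 (-1.75 ± 0.24, adjusted p = 0.000713). Of 18 vessel endothelium genes 1 fell, Cdh5, within background at both ages (adjusted p = 0.0490, 0.0556 with only the 5 tissue arrays fitted), and Pecam1 was within background in both groups. Flt1, a VEGF receptor, was at 433 and 372 at P10, then 237, 203 and 301 (adjusted p = 0.134). Among 23 skeletal muscle genes Pvalb and Tnnc2 fell, from 1073 and 1182 to 386, 434 and 547 (adjusted p = 0.0486) and from 566 and 562 to 309, 217 and 311 (adjusted p = 0.0434, 0.0752 with only the 5 tissue arrays fitted), and the cultures ran from 728 to 2201 for the first and from 440.4 to 783 for the second. The limma fit called no gene among 18 lymphocyte, 9 cartilage and sclera or 5 adipocyte markers, where 0, 2 and 1 had an unadjusted p below 0.05. In the corneal endothelium list Col8a1, described above, was the only 1 of 6 called, and Alcam was at 234 and 253 at P10 and 89.1, 123 and 93.3 in adults (adjusted p = 0.367, 0.0321 with only the 5 tissue arrays fitted). Hba-a1 did not pass without P10 replicate 2 (adjusted p = 0.122). Cdh5 lost the call without any 1 of the 5 arrays, after centring, after quantile normalization or with the Gapdh covariate (adjusted p from 0.0552 to 0.379). Pvalb did not pass without adult replicate 1 or 2 or P10 replicate 1 or 2, after centring or with the Gapdh covariate (adjusted p from 0.0663 to 0.333). Tnnc2 lost the call without adult replicate 1 or 2 or P10 replicate 1 or 2 or with the Gapdh covariate (adjusted p from 0.0724 to 0.269).

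**Figure D5:**
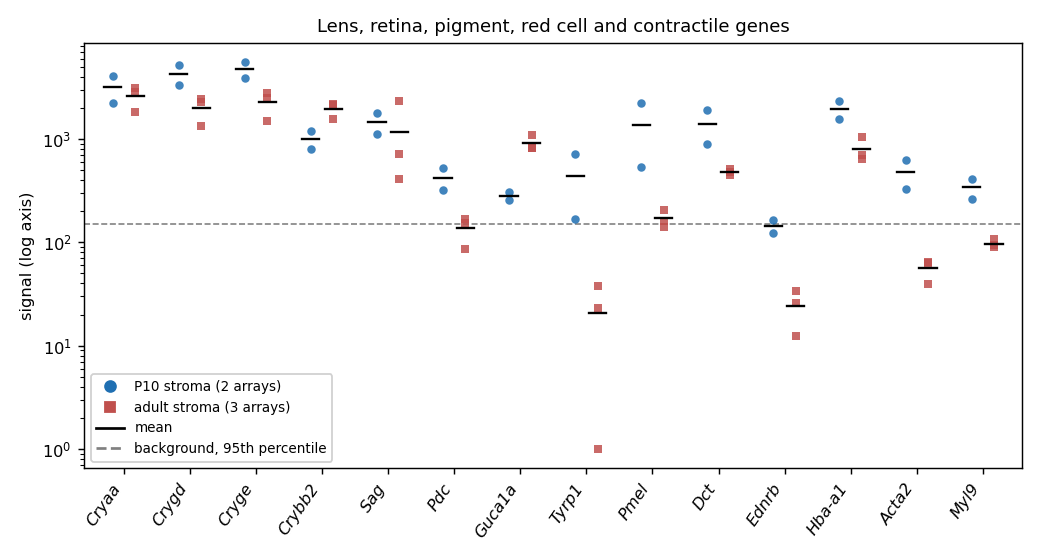
Points are single arrays, P10 as blue circles (2) and adult as red squares (3), with signal on a log axis, black bars at the means and a dashed line at the background level of 152. Pmel, Tyrp1 and Dct are higher at P10 and highest on 1 P10 array, Crybb2 and Guca1a are higher in the adult, and Cryaa and Sag overlap.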

How the data were processed

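Per the labels, the authors scaled the Affymetrix Microarray Suite 5.0 intensities to a target of 150. The deposited values are linear signal intensities with a floor at 1, and the 2% trimmed means of the tissue arrays were 181 to 202, so the exact scaling is not settled. Log2(signal + 16) of 9837 probe sets on all 14 arrays was fitted with limma 3.58.1 (R 4.3.3), with 5 group means, 9 residual degrees of freedom and a trended prior, and p-values were adjusted over all 9837 (Benjamini-Hochberg). The culture arrays only add to the estimate of spread. Probe sets were named from the platform table: 10833 had 1 symbol, 396 several and 1193 none, and only the first were named. Each gene was read from its brightest probe set in these tissues, so related genes may share signal.

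Named genes were the 25 largest rises and falls among called genes without overlap, up to 6 called and 3 brightest uncalled members of each of 57 lists, and a fixed set of markers. Genes outside this rule are marked. Members and lists were chosen with earlier results of these data known. "At least" folds set the brighter group's mean log2 signal against the dimmer group's mean of, per array, the higher of its own signal and the background level of 152. Promoter sequences are RefSeq's.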

Additional observations from a re-analysis of the deposited data

How the results depend on the processing

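Against 384 called probe sets (48 higher and 336 lower in the adult), fitting the 5 tissue arrays alone gave 245 (30 and 215), of which 203 were shared. The same fit without adult replicate 1, chosen after seeing the data, gave 18 (1 and 17). With the Gapdh ratio as a covariate there were 196, of which 161 were lower. Array quality weights gave 2246 (498 and 1748), and an adjusted p below 0.01 gave 168 (25 and 143). Median centring gave 97 higher and quantile normalization 117. Leaving out 1 array gave totals from 125 without P10 replicate 1 to 502 without adult replicate 3, with 19 to 91 higher and 106 to 411 lower. With the replicate number as a block there were 616 (74 and 542). Whether the numbers pair these samples is not settled. Same-numbered arrays correlated at 0.168 and -0.358 in their deviations from the group means. With 2 P10 arrays the P10 deviations mirror each other, so these values cannot decide it. The other added constants, filters and priors kept the total, higher and lower counts within 1.5 times. The causes of these shifts were not tested. Of the 254 called genes 61 passed in all 9 of the fits listed in the report, and no called gene reversed under centring or quantile normalization. Genes whose group means lie within background have no measured level there, and 3 against 2 arrays limits what any single call can carry.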
